A study of Mus musculus with 6 samples.

Results

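A set of 9 genes for proteins that astrocytes secrete or shed was followed in single-cell RNA-seq (scRNA-seq) data of the mouse striatum, chosen by name from the deposited count table and making up 9 of its 32285 genes. The set held *Sparc*, *Sparcl1*, the thrombospondin genes *Thbs1*, *Thbs2* and *Thbs4*, the glypican genes *Gpc4* and *Gpc6*, *Chrdl1* and *Tnc*. Striatal cells of wild type, male C57BL/6 mice had been enriched with magnetic beads against ACSA2, an astrocyte surface antigen, in 3 libraries at postnatal day 3 (P3) and 3 libraries at 3 months (3m). The libraries of an age were independent preparations, each with pooled tissue of several animals, so that p-values measure the spread between preparations. No library received a treatment. Each captured transcript was counted once through its unique molecular identifier (UMI). Of 14373 cells that the authors annotated, 9992 belonged to astroglial clusters (1118 at 3m, 8874 at P3), and these were checked against 7 astrocyte markers (such as *Aldh1l1* and *Aqp4*), which together had 14510 to 15389 CPM (UMIs scaled to a total of 1000000) at 3m and 5116 to 6157 CPM at P3.

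Developing synapses need signals that neurons do not supply themselves, and astrocytes release several of them. Thrombospondins and SPARC-like 1 (also called hevin) promote the assembly of excitatory synapses, SPARC itself counteracts SPARC-like 1, glypicans 4 and 6 recruit AMPA-type glutamate receptors to young synapses, and chordin-like 1, a secreted antagonist of bone morphogenetic proteins (BMPs), promotes the switch of those receptors towards a mature subunit composition. SPARC, the thrombospondins and tenascin C are matricellular proteins, that is, they sit in the extracellular matrix and modulate how cells interact with it without being structural. Some of them are also made by vascular cells.

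All 9 genes are protein coding, and in the GENCODE annotation of mouse build GRCm38 (mm10) none overlapped another gene on its own strand. *Sparc* lies on the minus strand at chr11:55394500-55423183 and *Sparcl1*, also on the minus strand, at chr5:104079111-104113733. The thrombospondin genes lie at chr2:118111876-118127133 (*Thbs1*, plus strand), chr17:14665500-14694235 (*Thbs2*, minus) and chr13:92751590-92794818 (*Thbs4*, minus). *Gpc4* (chrX:52053021-52165252, minus) and *Chrdl1* (chrX:143285674-143394262, minus) are X-linked, whereas *Gpc6* spans chr14:116925315-117976544 (plus) and *Tnc* chr4:63959785-64047015 (minus). Opposite-strand genes overlapped *Sparcl1*, *Thbs1*, *Gpc6* and *Tnc*, none of them within the last 1000 bases that 3′ sequencing reads.

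*Tnc* and *Thbs4* had the largest called age differences downwards and upwards among the 9 genes in astroglial cells, and the 250 bases upstream of their start sites are shown for that reason. The sequences are from RefSeq (GRCm38.p6), whose promoter table held entries for 5 of the 9 genes (*Sparc*, *Thbs2*, *Thbs4*, *Gpc4* and *Tnc*). They are written 5′ to 3′ along the minus strand, with capitals marking matches of letters anywhere in the 250 bases. In *Tnc*, at chr4:64047016-64047265, these are the letters of the TATA box motif (TATAAA), whose distance from the start site was not considered. In *Thbs4*, at chr13:92794819-92795068, they are the half-site of nuclear factor I proteins (TTGGC) as it reads on the other strand.
Tnc: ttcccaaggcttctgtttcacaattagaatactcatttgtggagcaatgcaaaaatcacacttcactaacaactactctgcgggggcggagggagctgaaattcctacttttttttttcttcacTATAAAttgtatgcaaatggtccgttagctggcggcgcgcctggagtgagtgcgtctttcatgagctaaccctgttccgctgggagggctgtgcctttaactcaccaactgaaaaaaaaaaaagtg
Thbs4: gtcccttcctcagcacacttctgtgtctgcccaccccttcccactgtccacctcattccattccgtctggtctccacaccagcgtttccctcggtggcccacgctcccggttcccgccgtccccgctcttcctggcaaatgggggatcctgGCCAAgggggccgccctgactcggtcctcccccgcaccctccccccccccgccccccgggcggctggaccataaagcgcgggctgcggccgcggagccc
The *Tnc* stretch had 44.8% G and C with 8 CpG dinucleotides, and that of *Thbs4* 70.8% with 19 CpG, against medians of 52.0% and 6 over 27025 promoters of the same length. Searched on both strands, TTGGC occurred in 41.9% of those promoters, TATAAA in 12.97% and the half-site of ROR nuclear receptors (AGGTCA), present in neither stretch, in 13.8%. These matches describe letters only, and nothing in these data measured binding.

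Library depth was very unequal between ages. Totals ranged from 5471573 to 10522151 UMIs at 3m and from 32193875 to 37795021 at P3, and the astroglial sums from 1157485 to 1843998 and from 22327104 to 30617140. Pairs of libraries shared 0 to 9 cell barcodes. The libraries also differed in composition. Cells outside the telencephalon, by the study's naming of sub-clusters, were 7.98%, 47.8% and 13.9% of the astroglial cells of 3m replicates 1, 2 and 3 and 7.61%, 29.2% and 51.5% of those of P3 replicates 1, 2 and 3. A list of 7 oligodendrocyte markers summed to 710 to 1872 CPM in the astroglial cells of 3m libraries and to 5.59 to 6.54 CPM at P3, *Mog* and *Opalin* being at 0 UMIs at P3. Restricted to telencephalic sub-clusters, their sum was 204 to 356 CPM at 3m and 5.72 to 6.53 CPM at P3. Each age comparison is therefore given for all astroglial cells and for the telencephalic ones (6658 cells, sub-clusters 0, 1, 2, 6, 7, 8, 9, 11 and 14).

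To see which cells expressed these genes, the UMIs of each were divided among the authors' cell classes. *Tnc*, *Chrdl1* and *Thbs4* were nearly confined to astroglia, with 98.3%, 98.8% and 100% of their P3 UMIs there (10031, 1676 and 104 UMIs), against 79.3% of the P3 cells. At 3m, where astroglia were 35.1% of the cells, they still held 96.9%, 91.9% and 93.1% of the UMIs of these genes (31, 170 and 27 UMIs). *Gpc6* (88.2% at P3, 79.1% at 3m), *Gpc4* (85.9% and 70.2%) and *Sparcl1* (81.0% and 81.4%) were mostly astroglial as well.

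**Figure D1:**
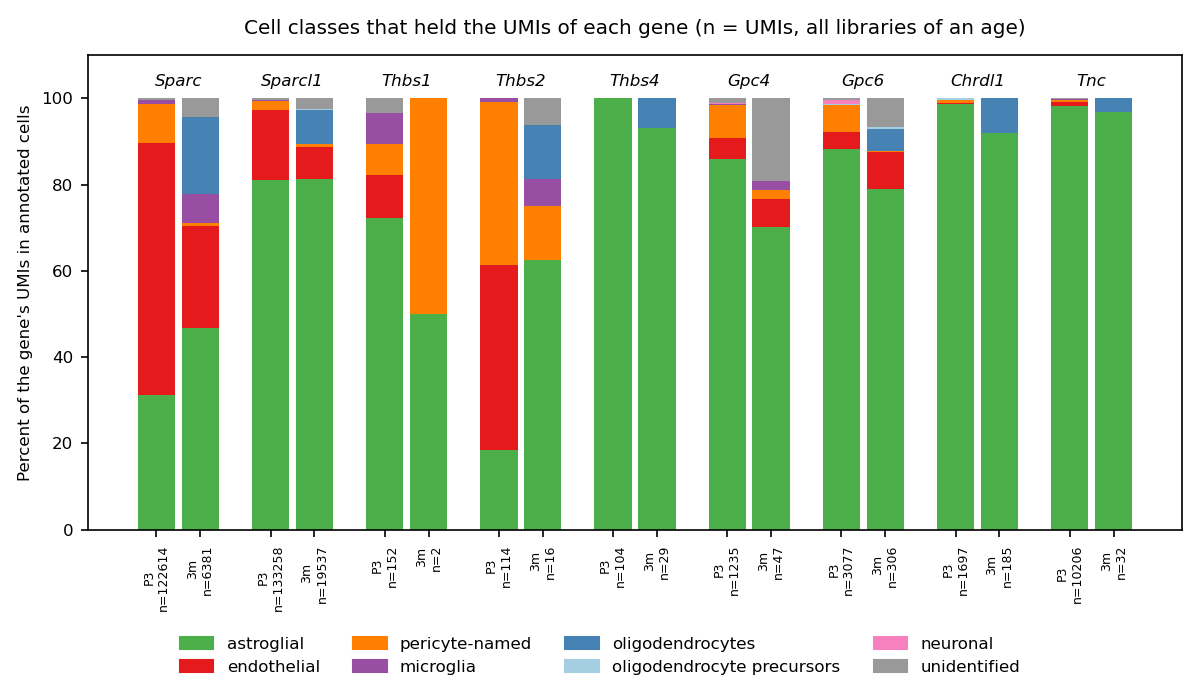
Share of each gene's UMIs (y axis, percent of its UMIs in annotated cells) held by each cell class, with 1 stacked bar per gene and age and the number of UMIs (n) under the bar. Astroglia held 98.3% of *Tnc* but only 31.1% of *Sparc* UMIs at P3.

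*Sparc* and *Thbs2* were distributed differently. At P3, the clusters that the authors named endothelial held 58.5% of all *Sparc* UMIs although they were 11.6% of the cells. Astroglia held 31.1% and pericytes 9.14%. Depth per cell differed, with a median of 26510 UMIs in endothelial cluster END_7 and 7307 in astroglia at P3. Shares of UMIs and shares of cells are therefore not on the same scale. The endothelial clusters of P3 had mixed markers. In END_7, END_12 and END_13, 7 endothelial markers summed to 4938, 1362 and 2473 CPM. The 7 astrocyte markers summed to 177, 3944 and 1166 CPM there, and 4 erythroid markers to 17661, 82998 and 139 CPM. At 3m the astroglial share was 46.8%, that of endothelial cells 23.7%, of oligodendrocytes 17.8% and of microglia 6.66%. *Thbs2* was sparse, with 114 UMIs at P3, of which 43.0% were endothelial, 37.7% from pericytes and 18.4% astroglial, and with 16 UMIs at 3m, of which 10 were astroglial. *Thbs1* had 152 UMIs at P3, 110 of them (72.4%) astroglial, and 2 at 3m.

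Levels were then compared between clusters, in sums per library and cluster of at least 20 cells. Clusters were made by the authors from all genes of the same cells, so these levels are a description without a test, and since only 3′ ends are read, levels are compared between cells and not between genes. The highest *Sparc* levels were in clusters named as vascular, 3635 ± 1324 CPM (SD, n = 3 libraries) in endothelial cluster END_7, 2555 ± 656 CPM (n = 2) in END_13 and 2483 ± 649 CPM (n = 3) in pericytes. Next came the 3m astrocyte cluster AST_3m_14 (1855 ± 787 CPM, n = 2) and the microglia of 3m (1609 ± 293 CPM, n = 2), followed by P3 cluster AST_P3_15 (1235 ± 253 CPM). Each of these clusters overlapped with the next in its library values, whereas END_7 (2765 to 5159 CPM) did not overlap with AST_P3_15 (1038 to 1520 CPM), and END_12 had 1814 CPM in its single library. Levels were far lower in the main 3m astrocyte cluster AST_3m_5 (175 ± 68.5 CPM), in oligodendrocytes (100.8 ± 49.9 CPM) and in oligodendrocyte precursors (59.7 ± 1.27 CPM). The main P3 astrocyte cluster AST_P3_0 lay between these groups, at 596 ± 66.8 CPM.

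**Figure D2:**
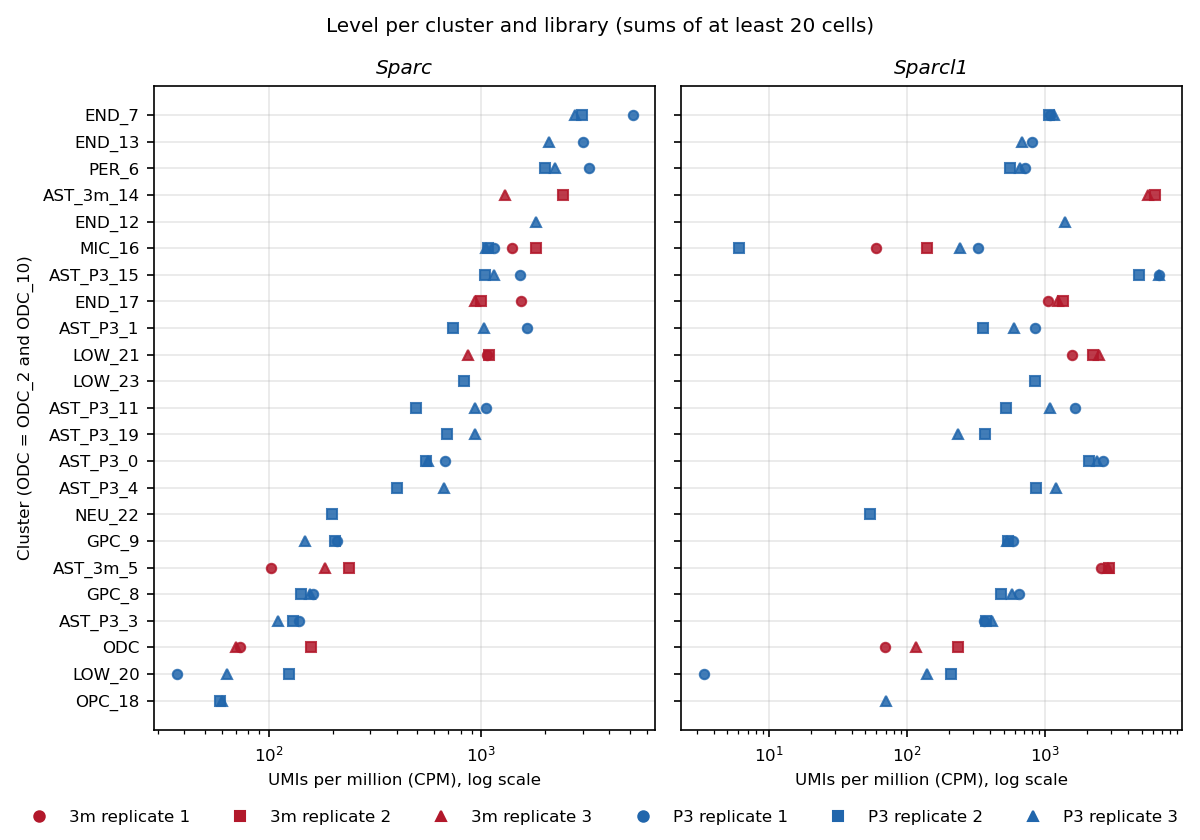
Level (x axis, CPM on a log scale) of *Sparc* and *Sparcl1* in each cluster (y axis), with 1 point per library sum of at least 20 cells, 60 in all, colour for age and symbol for replicate. Clusters named as vascular led for *Sparc* and astrocyte clusters for *Sparcl1*, and 1 *Sparcl1* sum at 0 cannot be drawn on the log axis.

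*Sparcl1* had another order. Clusters AST_P3_15 (6049 ± 1075 CPM) and AST_3m_14 (5885 ± 458 CPM) had the highest levels and overlapped with each other, above AST_3m_5 (2753 ± 175 CPM) and AST_P3_0 (2350 ± 282 CPM). Endothelial cells followed with 1206 ± 148 CPM in END_17 and 1103 ± 43.9 CPM in END_7, and oligodendrocytes had 140 ± 85.6 CPM. The clusters AST_P3_15 and AST_3m_14 were thus high for both members of the SPARC family.

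The remaining genes marked other clusters. *Chrdl1* was highest in AST_3m_5 (49.1 ± 3.42 CPM), then AST_P3_4 (30.2 ± 23.8 CPM, n = 2) and AST_P3_0 (30.0 ± 3.72 CPM), and low in AST_P3_15 (3.57 ± 2.14 CPM) and AST_P3_1 (2.76 ± 1.18 CPM), while oligodendrocyte precursors had 11.6 ± 3.19 CPM. *Tnc* was highest in AST_P3_11 (252 ± 80.5 CPM), AST_P3_0 (199 ± 13.2 CPM) and AST_P3_15 (181 ± 26.8 CPM), which overlapped, and stood at 9.13 ± 2.80 CPM in AST_3m_5. *Gpc6* was highest in LOW_21 (95.1 ± 43.9 CPM), a small cluster without a cell type name whose 6 pericyte markers summed to 43083 CPM, and reached 64.7 ± 3.96 CPM in AST_3m_5. *Thbs1* was highest in AST_P3_19 (16.2 ± 3.71 CPM), where 4 ependymal markers summed to 1985 CPM and the 7 astrocyte markers to 2588 CPM. *Thbs2* was highest in AST_3m_14 (11.4 ± 4.27 CPM) and pericytes (10.2 ± 2.75 CPM), and *Thbs4* in AST_3m_14 (13.8 ± 7.68 CPM).

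The ages were compared by edgeR's quasi-likelihood test on UMIs summed per library, with Benjamini-Hochberg adjustment over all genes tested. Calls required an adjusted p up to 0.05 together with a change of 2-fold or more, that is, 1 on the log2 scale. In all astroglial cells, 8 of the 9 genes passed the filter on low counts (*Thbs2* did not). Of these, 3 rose with age (*Sparcl1*, *Thbs4* and *Chrdl1*), 1 fell (*Tnc*) and 4 were not called, in a comparison that called 32.1% of all 13530 genes tested (15.8% higher and 16.3% lower at 3m). In telencephalic astroglia 7 genes were tested, of which *Thbs4*, *Gpc6* and *Chrdl1* rose, *Sparc* and *Tnc* fell and 2 were not called, where 34.4% of 12804 genes were called (16.6% higher and 17.8% lower). The shares called, 4 of 8 and 5 of 7 tested members, are thus to be read against comparisons in which many genes were called in each direction.

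**Figure D3:**
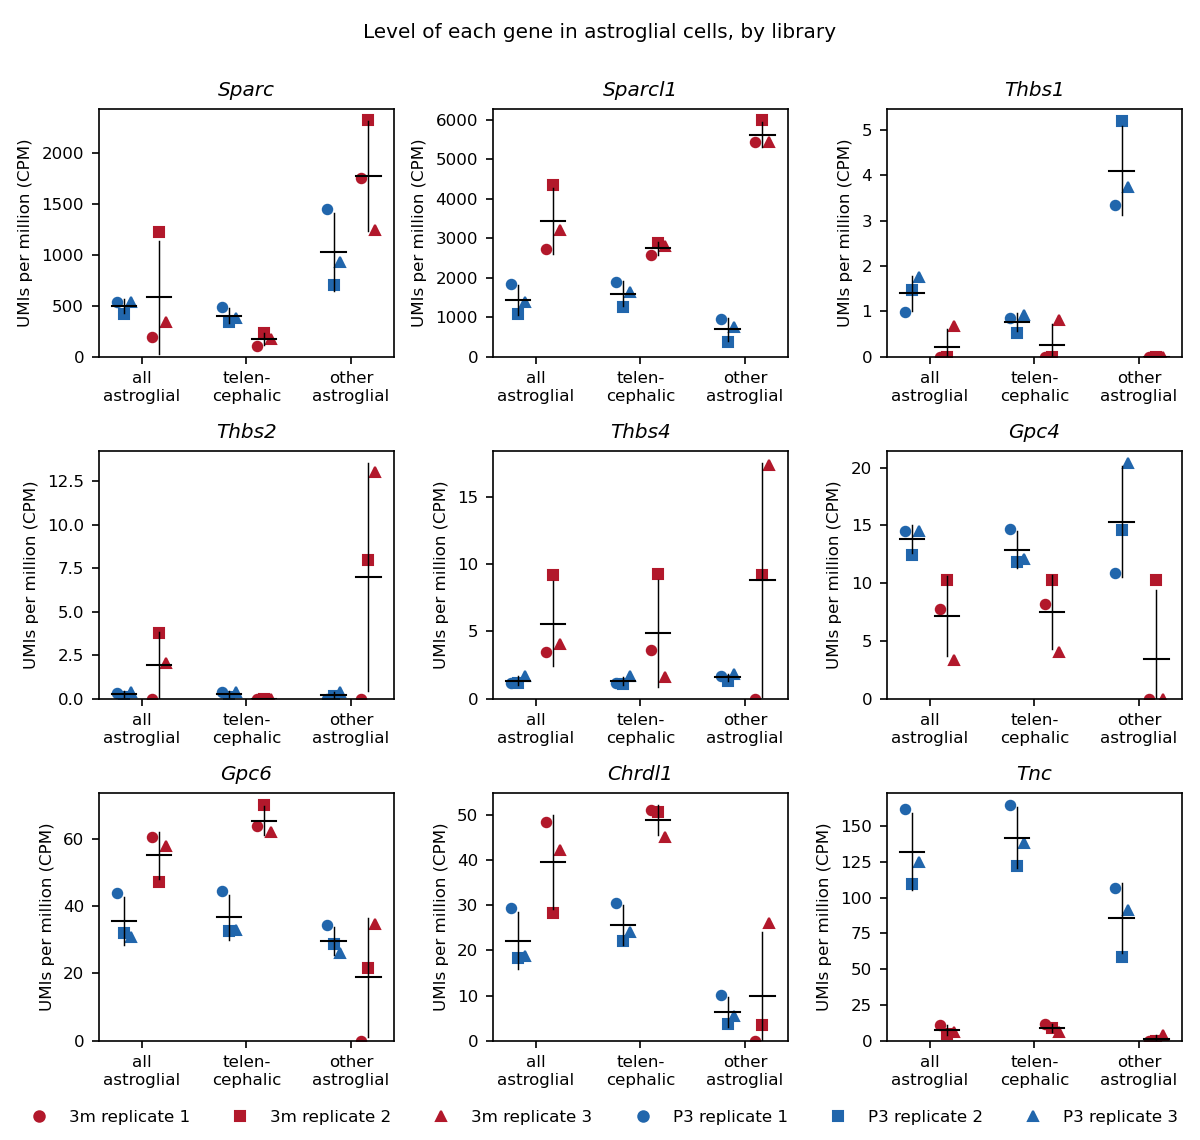
Level of each gene (y axis, CPM from 0) in all astroglial, telencephalic and other astroglial cells, with 1 point per library, colour for age and symbol for replicate. *Tnc* was between 109 and 162 CPM in the P3 astroglial sums and between 4.88 and 11.2 CPM in those of 3m, while 3m replicate 2 stood apart for *Sparc* at 1222 CPM.

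*Sparc* encodes the founding member of its family, a collagen-binding glycoprotein. In all astroglial cells it had 198, 1222 and 342 CPM in 3m replicates 1, 2 and 3 and 542, 418 and 539 CPM in the P3 replicates. Replicate 2 of 3m was above every P3 library and the other 3m libraries were below them, so the ages overlapped. The log2(fold change) of 3m over P3 was 0.45 (SE 0.471, adjusted p = 0.454 in edgeR's test), and without 3m replicate 2 it was -0.74. That library was also the one with 47.8% of its astroglial cells outside the telencephalon, and those cells held 90.1% of its astroglial *Sparc* UMIs.

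Within telencephalic astroglia the libraries were ordered by age. *Sparc* had 110.4, 230.0 and 174 CPM at 3m and 490.3, 345 and 377 CPM at P3. All 3m libraries were below all P3 libraries, by a log2(fold change) of -1.05 (SE 0.225, edgeR adjusted p = 0.00067), or 2.07-fold. The difference came close to the 2-fold threshold and fell under it without 3m replicate 1 (-0.86), without P3 replicate 1 (-0.89) and in cells without a UMI of vascular or microglial markers (-0.82). A list of 7 endothelial markers summed to at most 3.22 CPM at 3m and 4.54 CPM at P3 in these sums, and 6 pericyte markers to 77.3 to 94.9 CPM at 3m and 20.8 to 36.9 CPM at P3. Microglia markers (6 genes) summed to 7.25 to 10.3 CPM at 3m and 0.284 to 0.654 CPM at P3. The pericyte sum was carried by *Pdgfrb* (mean 84.6 CPM at 3m, 23.4 CPM at P3), while *Rgs5* had 0.841 and 2.99 CPM. The microglia sum was carried by *P2ry12* (7.94 and 0.154 CPM), with *Cx3cr1*, *C1qa*, *Tmem119* and *Csf1r* at 0 UMIs at 3m. The part of such cells in the *Sparc* difference was not tested.

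The P3 sums included dividing progenitor cells (sub-clusters 6 and 8) and the early postnatal sub-cluster 2, which is not a dividing one in the study's naming and held 2 cells of 3m. Without sub-clusters 6 and 8, a choice made after seeing the data, the *Sparc* difference was -1.34 on the log2 scale (edgeR adjusted p = 3.41e-05), with 110.4, 230.0 and 174 CPM at 3m and 605, 424 and 479 CPM at P3. With sub-cluster 2 left out as well (0, 1, 9 and 11 kept at P3, 7 and 14 at 3m), likewise chosen after seeing the data, *Sparc* had 110.4, 231 and 174 CPM at 3m and 692, 578 and 612 CPM at P3. The ages stood still further apart, at -1.64 on the log2 scale (edgeR adjusted p = 2.8e-06). In the other, non-telencephalic astroglia *Sparc* had 1758, 2323 and 1246 CPM at 3m, where replicate 1 rested on 17 cells, and 1451, 707 and 931 CPM at P3. Their values overlapped between ages and lay above those of the telencephalic cells of the same library in all 6 libraries. Endothelial markers summed to at most 2.29 CPM at 3m and 40.8 CPM at P3 in these non-telencephalic sums. Pericyte markers summed to at most 195 and 145 CPM, and the part of vascular cells in the *Sparc* levels was not tested.

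The sub-clusters of 3m were split in the same way. Among them, sub-cluster 13, outside the telencephalon, had 2266 CPM of *Sparc* in replicate 2 (168 cells) and 1388 CPM in replicate 3 (31 cells), and sub-cluster 7, telencephalic, 231 and 174 CPM in the same libraries. Sub-cluster 14, which held 182 of its 184 cells in 3m replicate 1 and is telencephalic too, had 111 CPM. Oligodendrocyte markers summed to 1359 CPM in sub-cluster 13 and to 332 CPM in sub-cluster 7, while oligodendrocytes themselves had 100.8 CPM of *Sparc*. Sub-cluster 16 had a marker sum of 16001 CPM and uneven *Sparc* levels, 2748 CPM in 3m replicate 2 (89 cells) and 494 and 480 CPM in replicates 1 and 3 (14 and 18 cells, under the minimum of 20). Sub-clusters of P3 did not follow that split, since the highest mean, 1288 ± 258 CPM, was that of the telencephalic sub-cluster 11, and the non-telencephalic sub-cluster 4 (527 CPM, 1 library) lay below the telencephalic sub-cluster 0 (644 CPM). The lowest mean was 105 ± 19.4 CPM in sub-cluster 2. Among sub-clusters with sums from at least 2 libraries, 13 (1827 ± 621 CPM) was highest, and its values (1388 to 2266 CPM) overlapped with those of 11, 5 and 3 but not with those of the others.

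**Figure D4:**
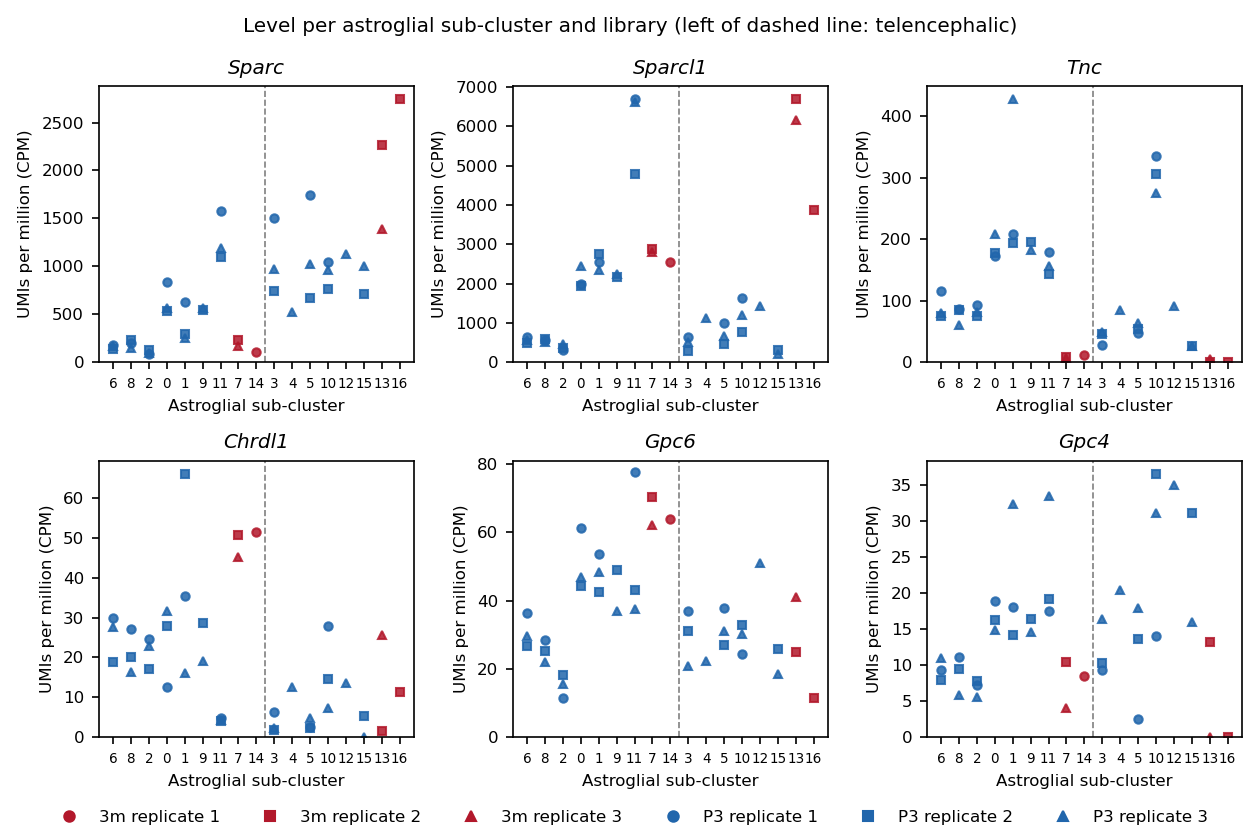
Level (y axis, CPM from 0) in each astroglial sub-cluster (x axis), with 1 point per library sum of at least 20 cells and telencephalic sub-clusters left of the dashed line. Sub-cluster 16 (1 library, 2748 CPM) and sub-cluster 13 (1827 CPM on average) were highest for *Sparc*, and sub-clusters 13 and 11 for *Sparcl1* (6427 and 6023 CPM).

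*Sparcl1*, the synapse-promoting relative of *Sparc*, had 2719.7, 4352 and 3212 CPM in the astroglial cells of the 3m libraries and 1833, 1082 and 1377 CPM in those of P3. Every 3m library was above every P3 library. The gene rose 2.76-fold with age (log2(fold change) 1.46, SE 0.271, edgeR adjusted p = 0.000619), and the call held in all 16 alternatives run, between 1.19 and 1.69. In telencephalic cells the values were 2567, 2874 and 2800.1 CPM at 3m and 1883, 1259 and 1635 CPM at P3. They did not overlap, but the log2(fold change) of 0.97 (SE 0.209, adjusted p = 0.000687 in edgeR's test) was just under the threshold of 1.

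The size of this difference depended on which P3 cells were set against 3m. Without the dividing sub-clusters 6 and 8 the ranges of telencephalic cells still did not overlap (2371, 1596 and 2141 CPM at P3), at a log2(fold change) of 0.64 (edgeR adjusted p = 0.0186). In sub-clusters 0, 1, 9, 11, 7 and 14 alone, *Sparcl1* had 2567, 2887 and 2800.1 CPM at 3m and 2718, 2236 and 2725 CPM at P3. These ranges overlapped, with a log2(fold change) of 0.33 (edgeR adjusted p = 0.19). Sub-cluster 2 had 376 ± 73.4 CPM, against 568 and 561 CPM in the dividing sub-clusters 6 and 8. Sub-cluster 0, with the most P3 astrocytes of the telencephalon, had 2123 ± 276 CPM, and sub-cluster 7 of 3m 2843 ± 61.1 CPM. Outside the telencephalon, the level was 5438, 5992 and 5430.2 CPM at 3m and 951, 377 and 756 CPM at P3, without overlap.

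Microglia, the resident macrophages of the brain, allowed the same age comparison in a non-astroglial class. Their *Sparc* level was 1402, 1817 and 1873 CPM at 3m (20, 23 and 17 cells) and 1143, 1081 and 1049 CPM at P3 (34, 44 and 46 cells). All 3m libraries were above all P3 libraries, by a log2(fold change) of 0.75 (SE 0.217, edgeR adjusted p = 0.0358), under the fold threshold. *Sparcl1* had 59.3, 139 and 37.5 CPM at 3m and 328, 6.07 and 242 CPM at P3, which overlapped (log2(fold change) -1.01, SE 0.842, edgeR adjusted p = 0.498). Of these 2 tested genes 0 were called, 1 of them (*Sparc*) having an unadjusted p under 0.05, where edgeR called 10.1% of 2679 genes (6.68% higher and 3.43% lower at 3m), and DESeq2 called neither.

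Thrombospondins bind the calcium channel subunit α2δ-1 on neurons. *Thbs4* was scarce, with 4, 17 and 6 astroglial UMIs at 3m and 27, 35 and 42 at P3, or 3.46, 9.22 and 4.07 CPM and 1.21, 1.14 and 1.71 CPM. Despite the low counts, all 3m libraries were above all P3 libraries (log2(fold change) 2.31, SE 0.442, edgeR adjusted p = 0.000805). A stricter filter on cells gave 1.70 and ended the call. In telencephalic cells the level was 3.65, 9.28 and 1.61 CPM at 3m and 1.18, 1.10 and 1.67 CPM at P3. One 3m library lay within the P3 range, and the call (1.98, SE 0.548, edgeR adjusted p = 0.00521) was lost without 3m replicate 2 (1.08).

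*Thbs1* was detected almost only at P3. Astroglial sums held 0, 0 and 1 UMIs at 3m and 22, 45 and 43 at P3, a rate 6.35-fold higher at P3 with a 95% counting interval of 1.12 to 253. With a single UMI at 3m the size of the difference is known only within that interval, and edgeR's log2(fold change) of -2.42 (SE 1.08, adjusted p = 0.0795) was not called. Microglia of P3 held 11 further *Thbs1* UMIs (12.2 CPM) and those of 3m 0 UMIs. Within P3 astroglia the level was 14.4 ± 6.52 CPM in sub-cluster 15 and 3.65 ± 0.512 CPM in sub-cluster 3. A list of 4 ependymal markers summed to 1681 CPM in sub-cluster 15 and 185 CPM in sub-cluster 3, against 13.4 CPM in sub-cluster 0.

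*Thbs2* had 0, 7 and 3 astroglial UMIs at 3m and 8, 3 and 10 at P3. All 10 of the 3m UMIs came from non-telencephalic cells, which had 4 at P3, a rate 31.2-fold higher at 3m (95% counting interval 8.99 to 136, pooled over libraries and so without replicate error). Telencephalic cells held 0, 0 and 0 UMIs at 3m and 8, 2 and 7 at P3. At 3m a floor of 3 UMIs over the group would be 0.907 CPM, above the P3 level of 0.270 CPM, so a decrease was not detectable at this depth.

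Glypicans are heparan sulfate proteoglycans tied to the membrane by a lipid anchor, from which they can be shed. *Gpc6* had 60.5, 47.2 and 57.7 CPM in the astroglial cells of 3m and 43.8, 31.9 and 31.0 CPM in those of P3. The ages did not overlap (log2(fold change) 0.82, SE 0.187, edgeR adjusted p = 0.00284), short of the fold threshold. In telencephalic cells it had 63.9, 70.1 and 62.0 CPM at 3m and 44.3, 32.7 and 33.0 CPM at P3. That difference, 1.01 (SE 0.172, edgeR adjusted p = 7.34e-05), passed the threshold narrowly, and in 11 of 14 alternatives it was under it, down to 0.68 in sub-clusters 0, 1, 9, 11, 7 and 14 alone.

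*Gpc4* went in the other direction. Its astroglial level was 7.78, 10.3 and 3.40 CPM at 3m and 14.5, 12.4 and 14.5 CPM at P3. All 3m libraries were below all P3 libraries, but the log2(fold change) of -0.72 (SE 0.302, edgeR adjusted p = 0.0636) was not called, and without 3m replicate 2 it was -1.23 and called. In telencephalic cells the levels were 8.21, 10.3 and 4.03 CPM against 14.7, 11.9 and 12.1 CPM, also without overlap or call (-0.64, SE 0.310, edgeR adjusted p = 0.09). Among sub-clusters, *Gpc4* was highest in 10 (27.2 ± 11.8 CPM) where sums came from at least 2 libraries, with 34.97 CPM in the single library of 12, and it was 7.20 ± 4.47 CPM in sub-cluster 7 of 3m. In sub-cluster 12 the endothelial markers summed to 634 CPM and the pericyte markers to 1534 CPM, and the part of vascular cells in its *Gpc4* level was not tested. For *Gpc6* the highest was sub-cluster 7 (66.3 ± 5.81 CPM), and the lowest P3 mean was 14.98 ± 3.46 CPM in sub-cluster 2, with 31.0 and 25.2 CPM in the dividing sub-clusters 6 and 8.

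*Chrdl1* had 48.4, 28.2 and 42.1 CPM in the astroglial cells of 3m and 29.4, 18.3 and 18.7 CPM at P3. The lowest 3m library lay just under the highest P3 library. The log2(fold change) was 1.01 (SE 0.238, edgeR adjusted p = 0.00338), at the threshold, and 11 of 16 alternatives, between 0.77 and 0.98, put it under. In telencephalic cells the ages separated, with 51.1, 50.5 and 45.1 CPM at 3m and 30.5, 22.0 and 24.2 CPM at P3 (1.11, SE 0.175, edgeR adjusted p = 3.02e-05). It was 1.01 in sub-clusters 0, 1, 9, 11, 7 and 14 alone. Cells outside the telencephalon had less *Chrdl1* than the telencephalic ones of the same library, with 0, 3.43 and 26.0 CPM at 3m and 10.0, 3.74 and 5.42 CPM at P3. Sub-clusters were less clearly divided. Sub-clusters 14 (51.6 CPM, 1 library) and 7 (48.0 ± 3.89 CPM) of 3m were highest, but the telencephalic sub-cluster 11 (4.32 ± 0.387 CPM) was near the non-telencephalic 3 (3.38 CPM) and 5 (3.16 CPM), and below 10 (16.6 CPM) and 4 (12.6 CPM), which are not telencephalic.

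*Tnc*, for tenascin C, an extracellular matrix glycoprotein of immature astrocytes and of neural stem cell niches, showed the largest fall. Astroglial sums had 11.2, 4.88 and 6.11 CPM at 3m and 162, 109 and 125 CPM at P3. The highest 3m library was far below the lowest P3 library, and the gene fell 16.4-fold (log2(fold change) -4.03, SE 0.271, edgeR adjusted p = 1.06e-07). In telencephalic cells it had 11.9, 9.28 and 6.44 CPM at 3m and 165, 122 and 138 CPM at P3, 13.7-fold less at 3m (-3.78, SE 0.235, edgeR adjusted p = 1.88e-10). Sub-clusters 0, 1, 9, 11, 7 and 14 alone gave -4.19. The call held in every alternative run.

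Within P3, *Tnc* differed between cell states. Sub-clusters 10 (306 ± 29.8 CPM), 1 (277 ± 131 CPM) and 0 (186 ± 19.3 CPM) had higher means than the dividing sub-clusters 6 (90.5 CPM) and 8 (77.3 CPM). Low means were not limited to dividing cells, with 83.9 CPM in sub-cluster 2, 55.5 CPM in 5, 40.8 CPM in 3 and 25.8 CPM in 15. At 3m the telencephalic sub-cluster 7 had 7.89 ± 2.02 CPM and sub-cluster 13 2.56 CPM. Non-telencephalic cells held 1 UMI of *Tnc* at 3m and 1148 at P3.

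Sums over all barcodes, which include the vascular and oligodendroglial cells, gave a partly different picture, and there fewer cells of a type and less RNA per cell cannot be told apart. They also include barcodes that the authors' cell filter left out, unequally between ages. A mitochondrial share of at least 10% was found in 836, 323 and 302 barcodes of 3m replicates 1, 2 and 3. At P3 it was found in 57, 56 and 32 barcodes of replicates 1, 2 and 3. Of 9 genes tested, *Thbs4* rose, *Thbs1*, *Gpc4* and *Tnc* fell and 5 were not called, where 34.5% of 15407 genes were called (18.4% higher and 16.1% lower). *Tnc* had 3.80, 1.54 and 1.83 CPM at 3m and 115, 90.8 and 89.9 CPM at P3 (log2(fold change) -5.08, SE 0.275, edgeR adjusted p = 1.21e-06). *Gpc4* had 3.80, 4.34 and 2.01 CPM at 3m and 11.5, 11.5 and 12.3 CPM at P3, and both genes were separated by age. The *Gpc4* difference (-1.58, SE 0.244, edgeR adjusted p = 0.000624) and that of *Thbs1* (-2.50, SE 0.594, edgeR adjusted p = 0.00639; 1, 3 and 1 UMIs at 3m against 31, 65 and 58 at P3) stood where astroglia were 35.1% of the annotated cells at 3m and 79.3% at P3. *Chrdl1*, with 98.8% astroglial UMIs at P3, differed by 0.08 over all barcodes (edgeR adjusted p = 0.827) and by 1.01 in astroglial cells. *Thbs4*, with 100%, rose by 1.24 and 2.31 in the same comparisons. The part of the astroglial share, or of the barcodes left out by the authors, in any of these differences was not tested. *Sparc* had 406, 768 and 391 CPM at 3m and 1706, 757 and 1113 CPM at P3 (-0.98, SE 0.334, edgeR adjusted p = 0.0321), which overlapped, where endothelial cells were 5.18% and 11.6% of the cells.

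Position on the authors' pseudotime, a unitless ordering of telencephalic cells that starts in a cycling sub-cluster, was used to follow the genes from dividing to adult cells. The 5879 cells fell into bins 2 to 19. With at least 20 cells of a library required, bins 2 to 14 were kept at P3 and 16 to 19 at 3m. Bin 15 was under that minimum, with 3, 16 and 3 cells in the 3m replicates and 2, 6 and 1 in those of P3. Bins 11, 13 and 14 held 2, 1 and 1 cells of 3m. No bin was kept for both ages, so bin and age cannot be told apart. *Sparcl1* did not climb steadily within P3. It went from 167 CPM in bin 2 (1 library) to 716 ± 290 CPM in bin 7 and down to 236 ± 46.9 CPM in bin 9, then to 463 ± 68.1 CPM in bin 12, 1394 ± 66.5 CPM in bin 13 and 2791 ± 259 CPM in bin 14, and the first 3m bin, at 2897 ± 80.3 CPM, overlapped with the last P3 bin. *Sparc* had 184 CPM in bin 7 and 93.2 CPM in bin 9, and climbed from 160 ± 11.7 CPM in bin 12 to 702 ± 66.5 CPM in bin 14, but stood at 139 ± 28.1 CPM in bin 17 and 202 ± 92.2 CPM in bin 18. Bin 16, with 412 ± 260 CPM over 2 libraries, was too variable to place.

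*Tnc* had 77.2 ± 26.8 CPM in bin 3, 93.3 ± 21.5 CPM in bin 7 and 47.7 ± 2.24 CPM in bin 9. It then reached 206 ± 27.1 CPM in bin 14 and was at 3.59 ± 3.71 CPM in bin 17 and 14.7 ± 7.85 CPM in bin 18. Bin 16 held 0 UMIs of *Tnc*. There 1 UMI makes 8.05 and 9.13 CPM in the 2 libraries kept, so that a level of a few CPM could have been missed. The last P3 and first 3m bins did not overlap for *Tnc* but did for *Sparcl1*, and *Sparc* was lower in bins 17 (108 to 163 CPM) and 18 (96.0 to 265 CPM) than in bin 14 (651 to 777 CPM). *Gpc6* went from 18.5 ± 2.82 CPM in bin 12 to 55.2 ± 7.21 CPM in bin 14 and 83.5 ± 18.0 CPM in bin 18. *Chrdl1* was 28.0 ± 1.37 CPM in bin 14 and 62.0 ± 21.4 CPM in bin 18, and *Gpc4* 17.4 ± 2.84 CPM and 6.72 ± 2.22 CPM.

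**Figure D5:**
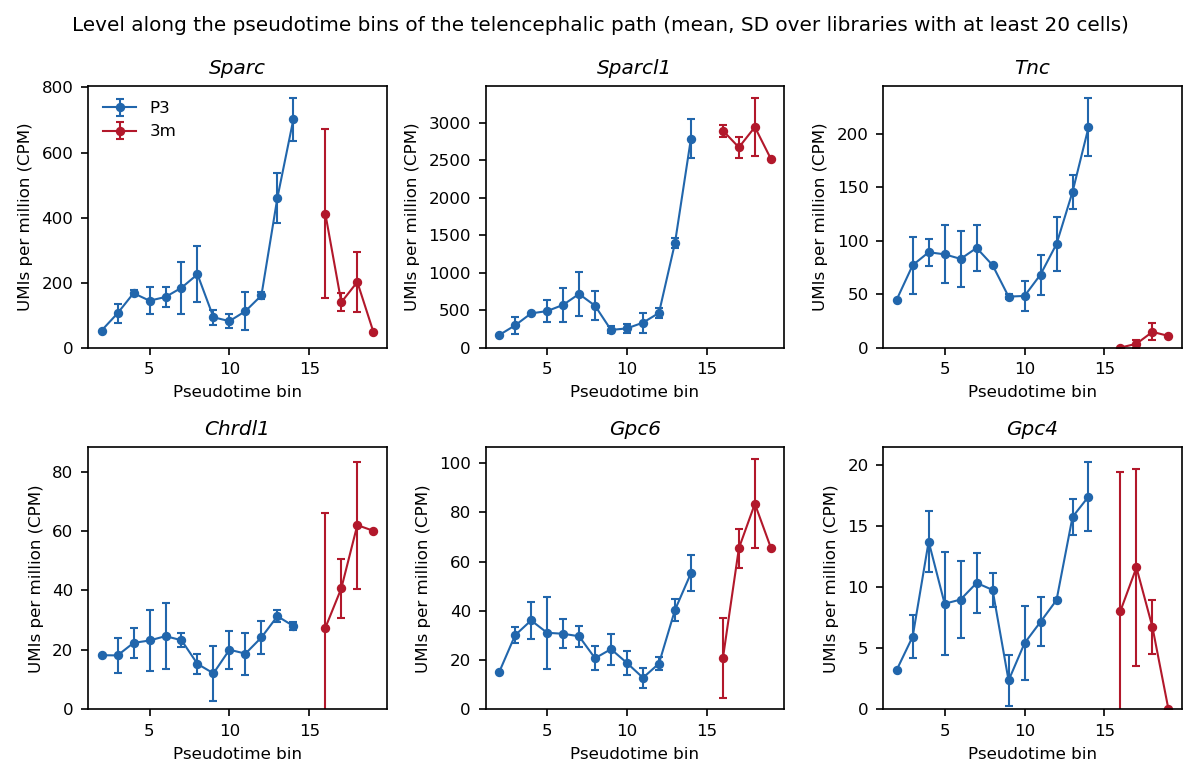
Level (y axis, CPM from 0) along the pseudotime bins (x axis), as mean and SD over libraries with at least 20 cells in the bin, P3 and 3m in separate colours. *Sparcl1* reached 2791 CPM in the last P3 bin and 2897 CPM in the first 3m bin. *Tnc* went from 206 CPM to 0 UMIs, where 1 UMI makes 8.05 and 9.13 CPM in the 2 libraries kept.

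Shares of cells with a UMI were compared after thinning each cell to 2000 UMIs, because the median astroglial cell had 3631 UMIs at 3m and 7307 at P3. Too shallow for this, and left out, were 212 astroglial cells of 3m and 1113 of P3. *Sparcl1* was detected in 99.5%, 98.3% and 97.7% of astroglial cells at 3m and in 68.8%, 55.8% and 63.3% at P3, and *Tnc* in 2.03%, 0.494% and 1.32% against 24.6%, 16.9% and 20.7%. In both cases the ages did not overlap, which with 3 against 3 libraries gives the smallest p an exact two-sided permutation test allows, 0.1. Unthinned, *Tnc* was found in 5.63%, 1.28% and 2.51% of cells at 3m and 61.8%, 45.2% and 36.4% at P3.

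Free RNA sets a background in droplet data, here read from oligodendrocytes of 3m (1697 cells, median 5420 UMIs) and oligodendrocyte precursors of P3 (91 cells, median 5671 UMIs). After thinning, 14.7% of the former and 1.10% of the latter had a *Sparcl1* UMI, and 0% of both had a *Tnc* UMI. *Sparc* was detected in 20.3%, 53.3% and 24.7% of astroglial cells at 3m and 55.2%, 49.9% and 55.9% at P3 (exact permutation p = 0.2), against 12.4% and 7.69% in those background cells. The adult telencephalic astrocytes (sub-clusters 7 and 14), at 19.4%, were not far above the oligodendrocytes. A *Sparc* UMI was found in 87.2% of the other adult astroglia (13 and 16), 71.7% of microglia at 3m and 76.2% of microglia at P3. Whether oligodendrocytes or precursors expressed *Sparc* themselves was not tested, so their shares are not a plain background for it.

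For *Gpc6* and *Chrdl1* depth decided the direction of these shares. Unthinned, *Gpc6* was found in 27.7%, 13.2% and 19.2% of astroglial cells at 3m against 36.0%, 24.5% and 16.6% at P3, but after thinning in 14.2%, 10.6% and 11.5% against 8.88%, 6.53% and 5.95%. Thinned *Chrdl1* shares were 7.11%, 5.68% and 11.5% at 3m and 5.47%, 3.55% and 3.10% at P3, and unthinned 20.2%, 7.69% and 15.6% against 22.4%, 13.7% and 9.27%. At 2000 UMIs the thinned shares of both genes did not overlap between ages (exact permutation p = 0.1). Thinned to 1000 UMIs they overlapped for both. *Gpc6* then had 4.27%, 2.43% and 5.62% at 3m against 4.46%, 3.06% and 3.44% at P3. *Chrdl1* had 1.90%, 2.43% and 4.21% against 2.59%, 1.69% and 1.64%. Background was 0.236% for *Gpc6* and 0.177% for *Chrdl1* in oligodendrocytes. In the P3 precursors 4.40% had a *Chrdl1* UMI, which is within the range of the P3 astroglial libraries. Unthinned, precursors (0.84% of the P3 cells) held 8 *Chrdl1* UMIs, pericytes (5.61%) 8, endothelial cells (11.6%) 5, and microglia and neurons 0. Whether the precursors expressed the gene themselves was not tested, so their share is not a plain background. *Thbs1* was found in 0 of 906 thinned cells at 3m, which allows a share of cells with a UMI of up to 0.331% at this depth, for counting error over the pooled libraries, and in 0.155%, 0.369% and 0.423% of cells of the P3 libraries. Unthinned, 1 of 1118 cells had a *Thbs1* UMI at 3m, and 0.957%, 1.39% and 1.11% at P3.

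The other genes of these pathways were counted in the astroglial comparison, in 6 lists whose medians are given beside that of every gene tested, -0.04 on the log2 scale. The counts are to be read against the 15.8% of 13530 genes called higher and 16.3% called lower there, and 16.6% and 17.8% of 12804 in telencephalic cells. In the SPARC family (7 of 8 tested), *Sparcl1* and *Spock3* rose and *Spock2* fell, with a median of -0.10. *Spock2* and *Spock3*, both for testican proteoglycans, had mean levels of 14.4 against 38.5 CPM (log2(fold change) -1.21) and 4.51 against 0.126 CPM (5.31) at 3m and P3. In telencephalic cells *Spock2* and *Sparc* fell and 0 of 6 tested rose.

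Among thrombospondins and their receptors 8 of 11 were tested, 3 rose and 2 fell, with a median of 0.42. Besides *Thbs4*, those that rose were *Cd47* (log2(fold change) 1.27), for a thrombospondin 1 receptor, and *Cacna2d2*, for a relative of the α2δ-1 subunit (16.8 CPM at 3m, 6.84 CPM at P3). *Thbs3* (-1.27) and *Cacna2d1*, for the α2δ-1 subunit (-1.01), fell. The level of *Thbs3* was 27.4 CPM at 3m and 75.9 CPM at P3.

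Of the glypicans, syndecans and glypican partners 14 of 15 were tested, 4 rose and 3 fell, and the median was -0.30. *Gpc5*, for another glypican, rose from 41.05 to 259 CPM (log2(fold change) 2.85), and the syndecan genes *Sdc4* (1.81) and *Sdc2* (1.74) rose as well. *Gpc1* (-1.43) and *Sdc1* (-2.38) fell. *Nptx1*, for the neuronal pentraxin that binds AMPA receptors, was called lower with 0 UMIs at 3m and a mean of 3.11 CPM at P3, and no fold is given for it. With the gene at the bound that 3 UMIs set, the median of the list was still -0.30.

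In the BMP list (9 of 13 tested), the ligand gene *Bmp6* (2.56) and the receptor gene *Bmpr1b* (1.34) rose with *Chrdl1*, 0 fell, and the median was 0.42. The tenascins and lecticans went mostly downwards, with 4 of 7 tested genes falling, 1 rising and a median of -1.82. *Vcan* fell from 116 to 10.1 CPM (log2(fold change) -3.37), *Ncan* from 663 to 164 CPM (-1.82) and *Ptprz1*, whose product binds tenascins, from 5292 to 1036 CPM (-2.15), while *Hapln1*, for a link protein, rose (1.32). Of 11 other synapse factors, all tested, 4 rose, 1 fell and the median was -0.15. *Il33* (4.27), for an alarmin, and *Mertk* (3.32) and *Megf10* (1.39), for phagocytic receptors, rose, and *Tgfb2* (-1.64) fell. All 7 oligodendrocyte markers rose in the same comparison, with a median of 9.65, or 7.40 with *Mog* and *Opalin* at the bound from 3 UMIs at P3, and the part of such cells in the list counts was not tested. In telencephalic cells the median of the tenascin list was -2.10, that of the BMP list 0.62 and those of the others between -0.53 and 0.14.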

How the data were processed

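Libraries were made with the 10x Chromium 3′ kit from cells bound by anti-ACSA2 beads. The deposited table holds raw UMI counts per gene and barcode of all 6 libraries (16690 barcodes), which the authors obtained by mapping to mm10 and counting with Cell Ranger, per the submitters' processing notes, before any cell filter. A second deposited table gives cluster names (24 clusters, made with Seurat 3.1.1 per the same notes), astroglial sub-clusters (17) and a pseudotime score that the authors computed with Slingshot on cells that had more than 500 genes and a mitochondrial share below 10%. Clusters were used as given, and doublets were not removed, as in the study.

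Counts were summed per library and cell set, since cells are not replicates. Ages were compared with edgeR 4.0.16 (quasi-likelihood, TMM, filterByExpr; R 4.3.3), two-sided, and DESeq2 1.42.0 was an alternative. The edgeR comparison of ages and the thinning of cells were tested on simulated counts. Shares of cells were compared by exact permutation tests in Python 3.11.15 with SciPy 1.17.1. Intervals and floors (3 UMIs) cover counting error only, and 3m sums, with the fewest UMIs, were the less precise. Low genes therefore carry wider errors at 3m.

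Alternatives changed scaling, filters, depth, cells or libraries, 1 at a time. Cells without vascular or microglial marker UMIs, telencephalic sums without the dividing sub-clusters 6 and 8 or also without sub-cluster 2, and the test of microglia against astroglia were added after seeing the data. The genes followed and the 6 pathway lists were chosen with earlier results of these data known. All 9 genes were named in every comparison, with up to 3 further called genes per list and direction, those with the largest changes in astroglial cells. For likeness of pattern, the 3 genes with the highest correlation across clusters were named for each member reaching 50 CPM in a cluster sum. Strand of counting is not given in the sources used here, and opposite-strand overlaps are stated.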

Additional observations from a re-analysis of the deposited data

Results flagged for a closer look

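The age difference of *Sparc* was not the same in microglia and in telencephalic astroglia. In microglia the mean level was higher at 3m (1402, 1817 and 1873 CPM against 1143, 1081 and 1049 CPM at P3), in telencephalic astroglia lower (110.4, 230.0 and 174 CPM against 490.3, 345 and 377 CPM). The difference between both log2(fold changes) was 1.46 (SE 0.257, edgeR adjusted p = 3.70e-06 for the interaction of age and cell class, over 8806 genes), and all libraries of each class followed its direction. *Sparcl1* differed the other way, by -2.11 (SE 0.450, edgeR adjusted p = 0.000195), but its microglial values overlapped between ages.

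This test was chosen after seeing the data. It held a term for each of the 6 libraries, so that the sums of both classes were compared within their library. Microglia numbered 17 to 46 per library. The *Sparcl1* level of P3 microglia was 328, 6.07 and 242 CPM where 7 astrocyte markers summed to 773, 143 and 1036 CPM in the same microglial sums, and the part of astroglial RNA in it was not tested. *Sparc* had 1143, 1081 and 1049 CPM in the same libraries, and the part of RNA from other cells in it was not tested either.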

How the results depend on the processing

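Across the alternatives, the log2(fold changes) of the members kept direction and call in 282 cases, lost the call in 34, gained it in 14 and changed sign in 4. *Sparc* in astroglial cells (0.45) ranged from -0.74 to 0.81 when each library was left out in turn, the lowest without 3m replicate 2 (edgeR adjusted p = 0.0425). *Chrdl1* over all barcodes (0.08) was -0.11 with scaling to library totals only and ranged from -0.32 to 0.36 with a library left out. The call of *Sparc* over all barcodes appeared in 7 of 11 alternatives (up to -1.38). *Thbs4* over all barcodes lost it in 4 of 11. *Chrdl1* in telencephalic cells (1.11) fell under the threshold in 3 of 14, the lowest being 0.93, *Sparcl1* there rose over it in 3 (up to 1.14), and *Sparcl1* in microglia was called in 2, with -1.26 without a filter and -1.64 without P3 replicate 2. *Gpc6* in astroglial cells was called only without P3 replicate 1 (1.00). *Tnc* kept direction and call in all alternatives run.

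The counts of called genes moved by over 1.5 times in 4 cases. Microglial calls (271) were 513 without a filter on low counts and 125 to 255 with a library left out (125 without 3m replicate 1, 159 without 3m replicate 2), and DESeq2 gave 199. Astroglial calls (4344) were 2733 with every library thinned to 1157485 UMIs, where fewer genes (9178) could be tested. Scaling to library totals moved the median over tested astroglial genes from -0.04 to -0.24 (log2), with 1753 calls higher and 2790 lower in place of 2140 and 2204, and in microglia gave 145 and 134 in place of 179 and 92. With sums of at least 10 cells, the highest cluster mean of *Gpc4* was 28.9 CPM in place of 26.4 and the highest sub-cluster mean of *Chrdl1* 43.1 in place of 48.0 CPM. In shares of cells with a UMI, the difference of 3m minus P3 without thinning was -5.67 percentage points for *Gpc6* (4.99 thinned) and -0.625 for *Chrdl1* (4.06 thinned), and *Thbs2* ranged from -0.0628 to 0.184 with a library left out (0.102).

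Labels number the libraries 1 to 3 at each age. Deviations from the age means did not pair by number throughout, with correlations of 0.21, 0.10 and 0.04 in astroglial sums, where not every library correlated best with its own number. They were 0.24, 0.10 and 0.07 in telencephalic sums and 0.15, -0.02 and -0.01 in microglia. Over all barcodes they were higher for replicates 1 and 2 (0.48 and 0.44) but not for replicate 3 (-0.003). With a replicate block edgeR called 4420 astroglial, 4458 telencephalic, 5483 all-barcode and 277 microglial genes. Among the members, the block added a call only for *Sparc* over all barcodes (edgeR adjusted p = 0.0077) and removed none.

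Depth limits scarce genes at 3m, where astroglial sums held at most 17 UMIs of any thrombospondin gene followed, 19 of *Gpc4* and 13 of *Tnc* in a library. Sub-clusters and clusters were dominated by single libraries in places (sub-cluster 13 had 168 of 202 cells in 3m replicate 2, and sub-cluster 14 182 of 184 in 3m replicate 1), and no label gives a date or batch.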

Other observations

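Likeness of pattern was measured as Pearson's r of log2(CPM + 1) across 61 sums of 1 library and 1 cluster with at least 20 cells. The sums share libraries and depth, so r is a description without a test. For *Sparc* the nearest genes were *Eva1b* (0.807), *Rgl1* (0.807) and *Vamp8* (0.772), and for *Sparcl1* they were *Htra1*, for a secreted serine protease (0.837), *Paqr7* (0.824) and *Pbxip1* (0.810). *Gpc6* was nearest to *Cap2* (0.873), *A830082K12Rik* (0.863) and *Fgfr1*, for a fibroblast growth factor receptor (0.854). *Chrdl1* was nearest to *Bmp7*, for a ligand of the BMP family (0.839), *Gm44257* (0.829) and *Emx2os* (0.815), and *Tnc* to *1110032F04Rik* (0.880), *Cybrd1* (0.876) and *Kcne1l* (0.872). The thrombospondin genes and *Gpc4* did not reach 50 CPM in any sum and were left out.

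*Sparc* UMIs of astroglia were unevenly spread within every library. Non-telencephalic cells held 47.2%, 90.1% and 57.1% of them in 3m replicates 1, 2 and 3 and 14.4%, 34.0% and 50.6% in P3 replicates 1, 2 and 3. The same cells held 5.31%, 47.4% and 15.6% of all astroglial UMIs at 3m and 5.36%, 20.1% and 29.3% at P3, so that the *Sparc* share was the higher in all 6 libraries.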
